A study of Mus musculus with 2 samples.

Results

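Glycolysis and the entry of pyruvate into mitochondria were followed through 34 genes in lung endothelial cells (ECs) 6 h after melanoma cells reached the lungs, with Pfkfb3, the gene of an enzyme that sets the pace of glycolysis, at their centre. The genes were taken by symbol from both count matrices, where the 34 symbols belong to 35 of 32285 gene IDs. Aldoa has a second ID (ENSMUSG00000114515) with 5 control and 1 B16-F10 UMIs in general capillary ECs, and that row was left out. All 34 genes are protein-coding in the annotation of the mouse genome.

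To examine the first response of the lung vessel wall, wild-type (WT) C57BL/6 mice were given phosphate-buffered saline (PBS; control) or 400000 B16-F10 cells, a mouse skin melanoma line dyed with a green tracker, in 100 µl by the tail vein. After 6 h, Pecam1-positive, Ptprc-negative cells were sorted from the lungs, and dyed melanoma cells were collected from the injected lungs only. Cells were sequenced as 1 library per group from pooled mice. The labels give 2 mice per treatment, while the study's methods give another number. Neither ages nor sexes of the animals are used here, and the injected cells are a bolus of a cultured line rather than cells shed by a tumor. Since each group is 1 library, no difference between control and metastatic lungs could be tested, and every interval below is a 95% interval that covers counting error only.

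Glucose enters a cell through facilitative transporters, is trapped as a phosphate by hexokinase and is committed to glycolysis by phosphofructokinase. The PFKFB enzymes make and break fructose 2,6-bisphosphate, the strongest activator of phosphofructokinase, and PFKFB3 is the family member whose kinase activity most outweighs its phosphatase activity. Pyruvate, the end product, is either reduced to lactate or carried into mitochondria and oxidized by the pyruvate dehydrogenase complex, which the PDK kinases inhibit. ECs are known for relying on glycolysis for most of their energy, and PFKFB3 is known for its role in sprouting vessels.

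The start regions of 3 genes on which the comparison turns are shown first, since Pfkfb3 and Ldha rose in general capillaries and Slc2a1 in aerocytes. Each window covers 300 bases, from 250 before to 50 after a transcription start of RefSeq on build GRCm38.p6, and is written 5′ to 3′ on the strand of the gene. Capitals mark ACGTG, the core that hypoxia-inducible factors recognize, or CACGTG, the E-box that MYC binds. Both were searched on both strands, and the palindrome CACGTG always holds ACGTG. Pfkfb3 has 2 such windows, at chr2:11553880-11554179 and chr2:11502041-11502340 on the minus strand, in that order. Ldha window 1 lies at chr7:46845554-46845853 and the Slc2a1 window at chr4:119108495-119108794, both on the plus strand.
Pfkfb3 window 1: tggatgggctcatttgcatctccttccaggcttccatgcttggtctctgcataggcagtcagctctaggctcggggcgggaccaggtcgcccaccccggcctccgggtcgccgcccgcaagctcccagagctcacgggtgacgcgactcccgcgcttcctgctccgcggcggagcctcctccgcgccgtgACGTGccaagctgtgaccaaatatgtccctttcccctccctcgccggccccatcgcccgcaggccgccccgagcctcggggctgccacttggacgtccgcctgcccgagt
Pfkfb3 window 2: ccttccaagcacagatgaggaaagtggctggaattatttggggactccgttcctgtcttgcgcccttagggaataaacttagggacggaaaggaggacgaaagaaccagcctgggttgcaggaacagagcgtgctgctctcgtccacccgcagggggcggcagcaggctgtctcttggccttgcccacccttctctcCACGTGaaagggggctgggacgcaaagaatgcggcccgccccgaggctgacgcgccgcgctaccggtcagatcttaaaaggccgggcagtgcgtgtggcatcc
Ldha window 1: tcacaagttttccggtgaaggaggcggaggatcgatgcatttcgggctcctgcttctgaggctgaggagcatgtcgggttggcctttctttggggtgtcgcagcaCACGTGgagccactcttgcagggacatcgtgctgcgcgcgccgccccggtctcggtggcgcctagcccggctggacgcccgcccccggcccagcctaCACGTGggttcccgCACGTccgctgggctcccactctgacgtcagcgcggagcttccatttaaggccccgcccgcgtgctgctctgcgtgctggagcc
Slc2a1 window: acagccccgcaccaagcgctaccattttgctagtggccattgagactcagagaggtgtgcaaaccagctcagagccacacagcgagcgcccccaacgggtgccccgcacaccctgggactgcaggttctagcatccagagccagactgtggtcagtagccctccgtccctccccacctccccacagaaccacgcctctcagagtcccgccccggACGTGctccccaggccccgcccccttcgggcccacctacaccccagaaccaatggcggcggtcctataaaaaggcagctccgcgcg
The Ldha window holds CACGTG at bases 106 and 203 and a further ACGTG at base 217, read on the other strand as CACGT. The Pfkfb3 windows hold ACGTG at base 191 and CACGTG at base 198, and the Slc2a1 window holds ACGTG at base 215. Ldha has a second window, at chr7:46846832-46847131, with neither motif. Eno1, another gene that rose, has neither motif in its 3 windows, and Pfkfb4 and Ldhb, which also rose in general capillaries, have neither. Pfkfb2 and Pdk2, whose ratios there had intervals below 0, each have a window with CACGTG. Of the 34 genes 33 have a window in the RefSeq table, Slc2a3 being the exception. ACGTG was present in 22 of their 53 windows (41.5%) and in 19.6% of all 32851 windows of that length. CACGTG was present in 6 of the 53 (11.3%) and in 7.15% of all windows. TTCNNNGAA, the palindrome that STAT factors bind, was present in 2 of the 53 (3.77%) and in 8.30% of all windows. Some genes have several windows that overlap, and these matches are letters in a sequence, not measured binding.

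The control library held 85794655 UMIs (unique molecular identifiers, each marking 1 captured RNA molecule) and the B16-F10 library 104978816. With the study's limits of 1000 to 5000 genes and under 20% mitochondrial UMIs, and after removal of predicted doublets, 7830 and 7767 cells remained, with medians of 7510 and 8557 UMIs. The libraries shared 18 cell barcodes, 0.230% of the control and 0.232% of the B16-F10 cells. Cells were clustered without the 34 genes and without the study's reactive-capillary and interferon genes, and classes were named from marker genes. General capillary (gCap-like) clusters each carried at least 7 of 8 endothelial and 6 of 8 gCap markers, and there were 4898 and 4501 gCap-like, 1446 and 967 aerocyte (aCap-like), 238 and 173 artery-like, 283 and 279 vein-like and 58 and 51 lymphatic (LEC-like) cells. The class labelled melanoma-like had 79 cells in the B16-F10 library, which carried the pigment genes Pmel, Mlana and Dct, and 1 cell in control. That control cell had 0 UMIs of the 8 melanoma markers and 23407 CPM of macrophage and monocyte markers, and no comparison rests on it. Levels are given as CPM, the UMIs of a gene per 1000000 UMIs of its class. UMIs come from one end of the transcript and were not divided by gene length, so CPM levels were not compared between genes. Shares within a gene family are shares of counted UMIs and carry the same limit. A class sum in CPM also cannot tell more RNA of a gene per cell from a change in how many cells carry it.

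In gCap-like ECs the pathway moved unevenly. Pfkfb3 rose 3.54-fold, Ldha, Eno1, Pfkfb4 and Ldhb passed a 1.5-fold change upward, and no gene of the 34 passed it downward. A gene counted as measured with at least 50 UMIs over both sums, which 29 of the 34 reached. The 5 higher genes stand beside 7.53% of all 13261 measured genes past the same fold upward, and the 0 lower genes beside 9.47% downward. The median log2 ratio of B16-F10 over control was 0.16 over the 29 genes and −0.04 over all measured genes. Of the 29 intervals 16 lay above 0, 2 below and 11 included it, while 28.7% of all genes lay above 0 and 34.4% below. Over all ECs summed, 31 were measured and 6 were past 1.5-fold upward and 0 downward, beside 8.05% and 11.1% of all 14415 genes. The 6 included Slc2a1 at 0.72 (0.55 to 0.90) and the lactate carrier gene Slc16a1, with 16 and 40 UMIs. Of the B16-F10 UMIs 251 of 719 for Slc2a1 and 20 of 40 for Slc16a1 came from the 343 cells of an EC cluster with no vessel name (cluster 12). Without it, a choice made once the data had been seen, Slc2a1 was at 0.20 (0.0026 to 0.39), Slc16a1 was under the minimum of UMIs, and 4 genes were past 1.5-fold upward. In gCap-like ECs the 34 genes together made up 1430 CPM in control and 1816 CPM in B16-F10 lungs.

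**Figure D1:**
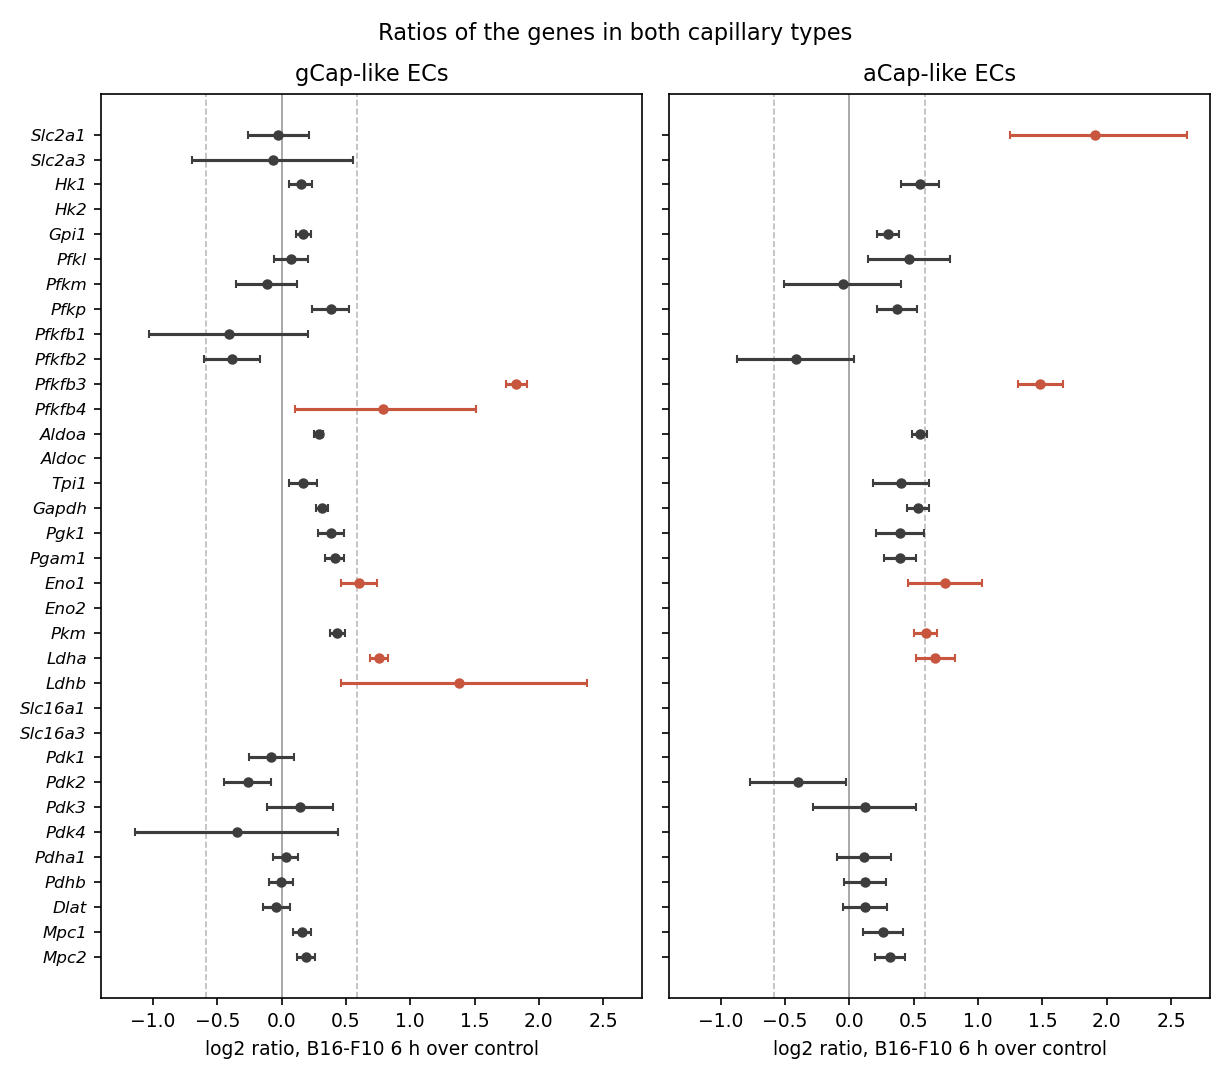
Log2 ratio of B16-F10 over control for each of the 34 genes in gCap-like and aCap-like ECs, with bars for the 95% counting interval, dashed lines at the 1.5-fold limits, genes past them in red and rows left blank for genes under 50 UMIs. Pfkfb3 stands apart at 1.83 in gCap-like and 1.48 in aCap-like ECs, and Slc2a1 is at −0.02 in the former and 1.91 in the latter.

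Pfkfb3 (ENSMUSG00000026773, GRCm38 chromosome 2, 11471433 to 11554077, minus strand) was counted with 1425 UMIs in control gCap-like ECs and with 5417 in those of B16-F10 lungs. This is 38.7 CPM (36.8 to 40.8) in control and 137 CPM (134 to 141) in B16-F10 lungs, a log2 ratio of 1.83 (1.74 to 1.91). The intervals of both libraries lie far apart, and only 106 of the 13261 genes had a larger ratio. The study lists Pfkfb3 among the markers of its reactive capillary cells and chose that list partly on these libraries, so its rise here is not independent evidence. After each cell was thinned to 2000 UMIs, the share of gCap-like cells with a Pfkfb3 UMI was 7.26% (6.54 to 8.03) in control and 19.3% (18.2 to 20.5) in B16-F10 lungs. Without thinning the shares were 21.4% and 46.2%, at medians of 7332 and 8476 UMIs per cell. In the thinned cells free RNA would give shares of 0.114% and 0.629%, and at full depth 1 of 79 melanoma-like cells in the same library had a Pfkfb3 UMI, at a median of 7879 UMIs.

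The rise of Pfkfb3 was present in every kind of blood vessel measured. In aCap-like ECs it went from 387 to 896 UMIs, or from 29.5 CPM (26.7 to 32.6) to 82.4 CPM (77.1 to 88.0), and the log2 ratio was 1.48 (1.31 to 1.66). In artery-like ECs it went from 78 to 169 UMIs, 42.1 to 105 CPM, a ratio of 1.32 (0.92 to 1.72). In vein-like ECs it went from 48 to 148 UMIs, 16.01 to 47.0 CPM, a ratio of 1.56 (1.08 to 2.06). Free RNA was estimated at 0.953% and 7.23% of vein-like UMIs and would supply 1.68% and 15.5% of their Pfkfb3, red cell markers went from 514 to 3553 CPM, and with free RNA subtracted the ratio was 1.43. Vein-like ECs thus had the lowest level of these 4 classes in both libraries, with an interval below those of the other 3, while gCap-like and artery-like ECs overlapped in control. In LEC-like ECs Pfkfb3 had 13 and 22 UMIs, too few for a call, and the ratio of 0.76 (−0.30 to 1.87) included 0. Whether the ratios differ between classes could not be tested.

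**Figure D2:**
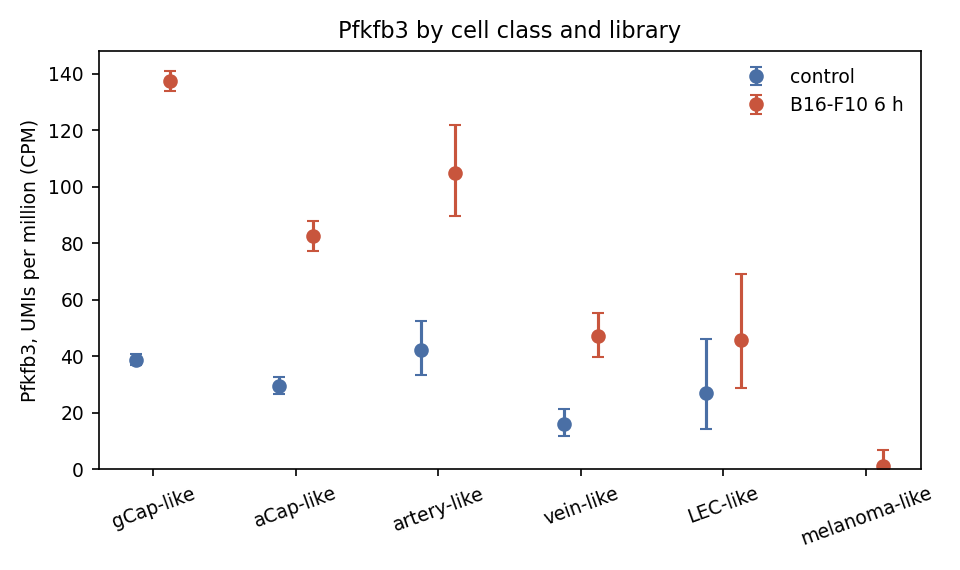
Pfkfb3 level in CPM (vertical axis) by cell class in the control (blue) and the B16-F10 (red) library, with bars for the exact Poisson 95% interval. B16-F10 values are higher in gCap-like (137 against 38.7 CPM), aCap-like, artery-like and vein-like ECs, the intervals of LEC-like ECs overlap, and melanoma-like cells are at 1.20 CPM.

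The rise was also uneven within the capillaries. All 6 gCap-like clusters had a ratio with an interval above 0, and in 4 of them (clusters 0, 1, 3 and 4) it lay between 0.90 and 1.07. Clusters 3 and 4 were the largest in control, with 1266 and 1206 cells, and cluster 1 in B16-F10 lungs, with 1104. Cluster 6, led by Lalba, Tmem252 and Adamts9, held 73 control and 970 B16-F10 cells, and there Pfkfb3 had 41 and 3103 UMIs, 71.5 and 341 CPM. In its B16-F10 cells the mural markers summed to 38.2 CPM and the macrophage and monocyte markers to 27.7 CPM, close to the sums over all gCap-like cells of that library. These 970 of 4501 cells thus carried 3103 of the 5417 Pfkfb3 UMIs. Without cluster 6, a choice made once the data had been seen, Pfkfb3 went from 38.2 to 76.3 CPM, a log2 ratio of 1.00 (0.90 to 1.09).

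Cluster 12, 1 of 3 EC clusters with no vessel name, had Hbegf, Sox9 and Fosl1 among its leading genes and held 12 control and 343 B16-F10 cells. Its B16-F10 cells had the highest Pfkfb3 level of all EC clusters, 450 CPM from 1529 UMIs. They also had 299 CPM of Hk1, the hexokinase of most tissues, 74.0 CPM of Slc2a1, 127 CPM of Pgk1 and 232 CPM of Pkm. In gCap-like ECs of the same library these genes had 55.6, 7.86, 50.8 and 146 CPM. Pdk1 was at 3.24 CPM in this cluster against 13.6 CPM in gCap-like ECs, and Pfkm had 2 UMIs. Its 8 gCap markers summed to 1936 CPM against 6597 CPM in gCap-like ECs of that library, its 8 mural markers to 232 CPM against 36.0 CPM, its 8 LEC markers to 4764 against 1501 CPM and its 6 platelet markers to 87.5 against 27.6 CPM. Their part in these levels was not tested. With 12 control cells the cluster allows no comparison between libraries beyond these values, and a state of that library and a type of cell cannot be told apart.

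**Figure D3:**
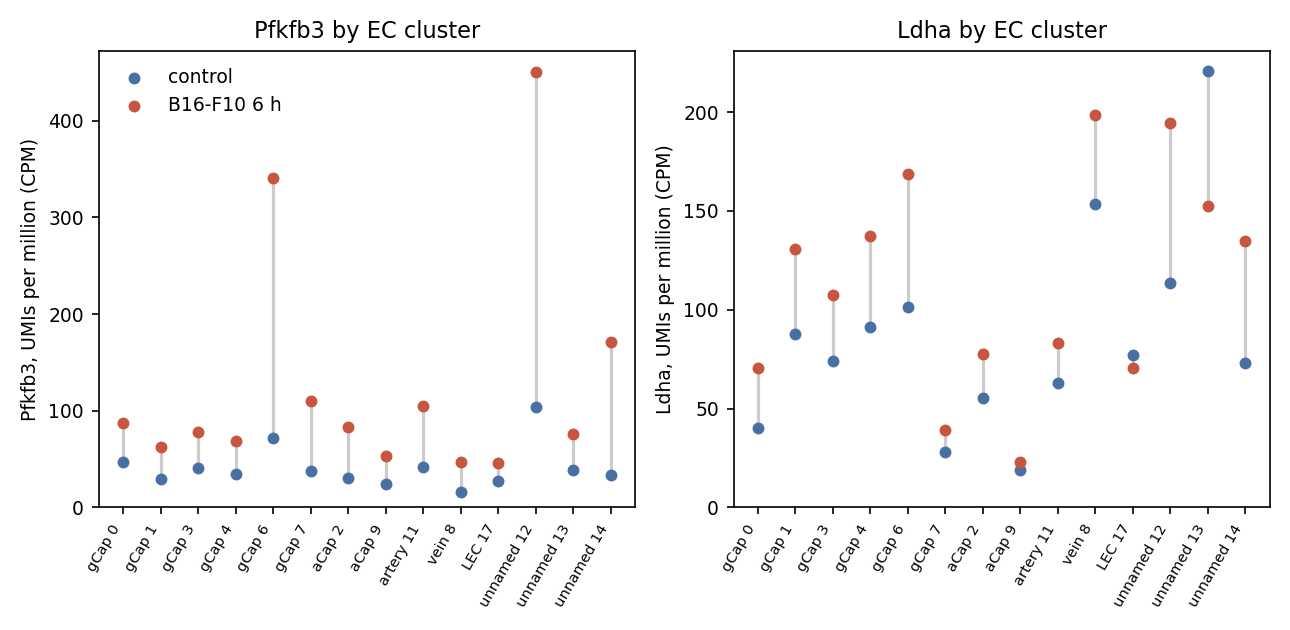
Pfkfb3 and Ldha levels in CPM (vertical axes) in each EC cluster, named by class and number, with a blue point for control, a red point for B16-F10 and a line joining them. Pfkfb3 is at 341 and 450 CPM in clusters 6 and 12 of the B16-F10 library and at most 171 CPM in the others, while Ldha spreads over the clusters without such a step and is lower in B16-F10 in clusters 13 and 17.

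The study scores its reactive state by marker genes, and gCap-like cells were ranked, and split into 3 equal groups per library, by the UMIs of those markers in cells thinned to 2000 UMIs, with the 34 genes and the interferon genes taken out of the list. In B16-F10 lungs Pfkfb3 was at 55.2 CPM in the cells ranked lowest, 84.2 CPM in the middle and 268 CPM in those ranked highest, a log2 ratio of 2.28 (2.17 to 2.40) of highest over lowest. In control lungs the 3 groups were at 35.2, 40.4 and 40.5 CPM, a ratio of 0.20 (0.012 to 0.39). The highest control group spanned 25 to 64 marker UMIs, and the lowest and highest B16-F10 groups 8 to 32 and 47 to 139. The ratios of both libraries thus cover unlike ranges of the score and cannot be compared directly. The study chose its markers partly on these libraries, so the ranking is not independent evidence. Ldha followed in B16-F10 lungs, with 94.6, 105 and 157 CPM. Aldoa, at 382, 397 and 390 CPM, differed little over the groups of B16-F10 cells, while in control it was at 280, 319 and 360 CPM, a ratio of 0.36 (0.29 to 0.42). Pfkfb2, Pfkm, Tpi1, Pdk2 and Pdk3 were lower in the highest than in the lowest group of B16-F10 cells, with log2 ratios of −0.73, −0.71, −0.50, −0.54 and −0.59 and intervals below 0. Gpi1 and Pdhb, at −0.10 and −0.17, also had intervals below 0. Pkm, Gapdh and Pgam1, at 0.27, 0.11 and 0.12, had intervals above 0. The groups are ranges of a score rather than kinds of cell. Of 4473 B16-F10 cells, 633 lay within 2 UMIs of the lower limit and 343 of the upper, and of 4836 control cells 1400 and 1113.

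Of the other PFKFB genes, Pfkfb2, the heart-type enzyme, had 395 and 325 UMIs in gCap-like ECs, 10.7 CPM (9.71 to 11.9) in control and 8.24 CPM (7.37 to 9.18) in B16-F10 lungs. Its log2 ratio of −0.38 (−0.60 to −0.17) was within the 1.5-fold limits. Pfkfb4 rose from 28 to 52 UMIs, 0.761 to 1.32 CPM, a ratio of 0.79 (0.10 to 1.51) at a low level. Pfkfb1, the liver-type enzyme, had 52 and 42 UMIs, and its interval included 0. The family thus became more uniform. Pfkfb3 made up 75.0% (72.99 to 76.9) of the PFKFB UMIs of gCap-like ECs in control and 92.8% (92.1 to 93.5) in B16-F10 lungs. Its share went from 71.5% to 90.3% in aCap-like, from 70.9% to 88.5% in artery-like and from 50.0% to 75.5% in vein-like ECs.

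**Figure D4:**
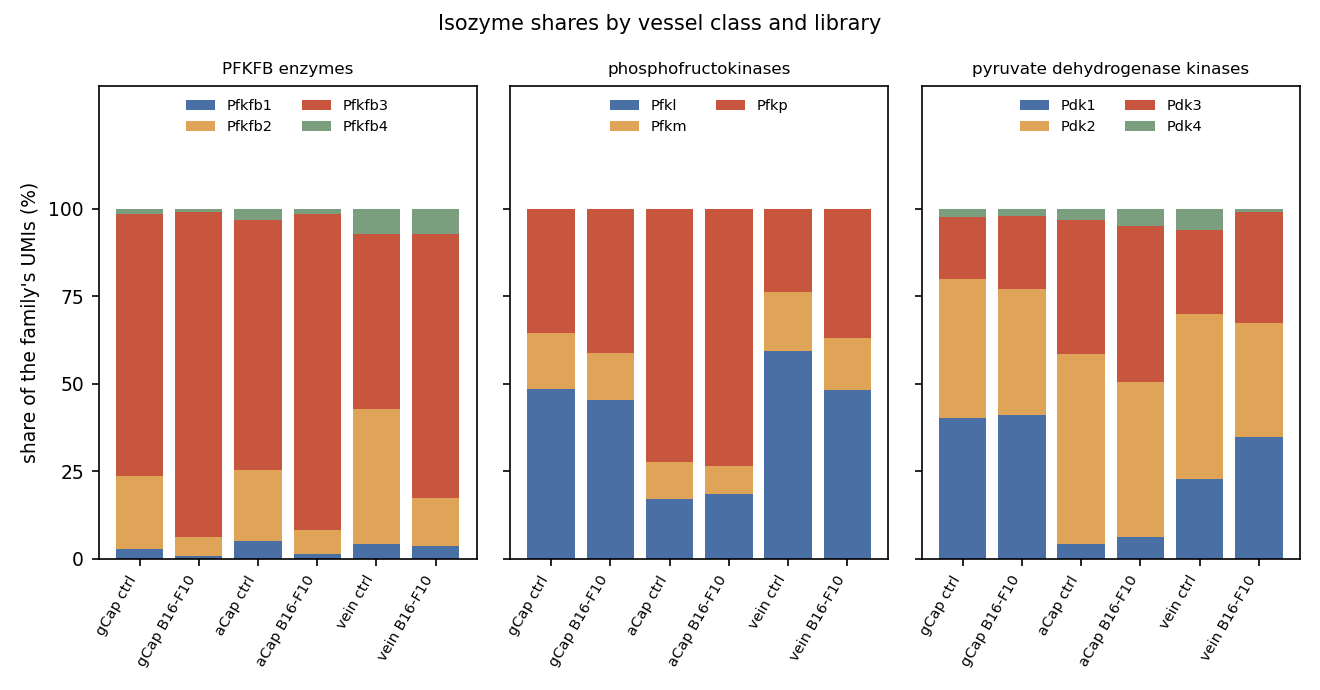
Share of a family's UMIs taken by each gene of the PFKFB enzymes, phosphofructokinases and pyruvate dehydrogenase kinases in gCap-like, aCap-like and vein-like ECs of each library, in percent. Pfkfb3 takes 92.8% of PFKFB UMIs in gCap-like ECs of B16-F10 lungs, and of the 3 classes aCap-like ECs are the one where Pfkp takes most phosphofructokinase UMIs.

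Among glucose transporters, Slc2a1, which encodes GLUT1, had 294 and 310 UMIs in gCap-like ECs, 7.99 CPM (7.11 to 8.96) and 7.86 CPM (7.01 to 8.78). These intervals overlap almost entirely, and the ratio of −0.02 (−0.26 to 0.21) included 0. In aCap-like ECs Slc2a1 went from 25 to 78 UMIs, 1.91 CPM (1.23 to 2.82) to 7.17 CPM (5.67 to 8.95), a ratio of 1.91 (1.24 to 2.62). Aerocytes of control lungs were thus lower in Slc2a1 than general capillaries, and in B16-F10 lungs the intervals of both classes overlapped. This ratio rests on few UMIs and fell to 1.13 when cells with a UMI of platelet, mural, macrophage, neutrophil or melanoma markers were removed, also a choice made once the data had been seen. Slc2a3, which encodes GLUT3, had 45 and 46 UMIs in gCap-like ECs.

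Hk1 made up over 99% of hexokinase UMIs in gCap-like and aCap-like ECs. It had 50.2 CPM (47.9 to 52.5) in control and 55.6 CPM (53.3 to 57.99) in B16-F10 gCap-like ECs, a log2 ratio of 0.15 (0.06 to 0.24). In aCap-like ECs it had 51.6 CPM (47.8 to 55.6) and 75.5 CPM (70.4 to 80.9), a ratio of 0.55 (0.40 to 0.70), under 1.5-fold, which was 0.61 and past it without the low-UMI aCap-like cluster 9. Hk2, the inducible hexokinase of muscle and tumors, had 9 and 11 UMIs in gCap-like ECs and was not measured.

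Among the phosphofructokinase genes, aerocytes differed from general capillaries in both libraries. Pfkp, the platelet-type gene, took 35.5% (33.3 to 37.7) of phosphofructokinase UMIs in control gCap-like ECs and 72.3% (69.3 to 75.2) in control aCap-like ECs, with intervals far apart. In B16-F10 lungs its shares were 41.3% (39.2 to 43.3) and 73.5% (70.6 to 76.3). Its share in vein-like ECs went from 23.9% (18.1 to 30.4) to 36.9% (30.1 to 44.1), with intervals that overlap narrowly. Pfkl, the liver-type gene, had 24.7 and 26.0 CPM and Pfkm, the muscle-type gene, 8.27 and 7.63 CPM in gCap-like ECs, with ratios whose intervals included 0. Pfkp had 18.1 and 23.6 CPM there, a ratio of 0.38 (0.24 to 0.53). Gpi1, which turns glucose 6-phosphate into fructose 6-phosphate, had a ratio of 0.17 (0.11 to 0.23).

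The genes of the lower part of glycolysis moved upward together by small amounts. In gCap-like ECs Aldoa (aldolase A), Tpi1 (triosephosphate isomerase), Gapdh, Pgk1 (phosphoglycerate kinase), Pgam1 (phosphoglycerate mutase), Eno1 (enolase) and Pkm (pyruvate kinase) had log2 ratios of 0.29, 0.17, 0.32, 0.38, 0.41, 0.60 and 0.43, all with intervals above 0. Among them Eno1 passed 1.5-fold. It had 664 and 1082 UMIs, 18.1 CPM (16.7 to 19.5) and 27.4 CPM (25.8 to 29.1). Aldoa, the most counted of them, had 11728 and 15355 UMIs, 319 and 389 CPM. Eno1 has a near-identical copy in the annotation, Eno1b, so reads of the pair may have been split. Aldoc had 1 and 3 UMIs, and Eno2, the neuronal enolase, had 0 UMIs in both libraries, which left upper limits of 0.100 and 0.0935 CPM.

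In aCap-like ECs the same genes were also above 0, with ratios of 0.55 for Aldoa, 0.40 for Tpi1, 0.53 for Gapdh, 0.39 for Pgk1, 0.40 for Pgam1, 0.74 for Eno1 and 0.59 for Pkm. There 23 of the 34 genes were measured, and 5 of them (Slc2a1, Pfkfb3, Eno1, Pkm and Ldha) were past 1.5-fold upward and none downward, beside 6.43% and 8.06% of all 11102 measured genes. The median was 0.39 over the 23 genes and 0.01 over all genes. The low-UMI cluster 9 held 480 control and 64 B16-F10 aCap-like cells. Without it, again chosen once the data had been seen, Pkm and Ldha fell under 1.5-fold, at 0.44 and 0.50, Hk1 passed it at 0.61 (0.45 to 0.77), and Pfkfb3 was at 1.43. The ratios of Aldoa, Tpi1, Gapdh, Pgk1 and Pgam1 were then 0.35, 0.18, 0.32, 0.23 and 0.19, and the interval of Tpi1 included 0.

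In artery-like ECs 19 genes were measured and 5 were past 1.5-fold upward, beside 7.65% of all 7974 genes. These were Pfkfb3, Pkm at 0.88 (0.57 to 1.18), Pgk1 at 0.73 (0.27 to 1.21), Eno1 at 0.71 (0.08 to 1.35) and Slc2a1 at 0.79 (−0.08 to 1.68), whose interval included 0. In vein-like ECs 23 were measured and 2 were past it, beside 5.44% of all 9273 genes, Pfkfb3 and Pdk1 at 0.68 (−0.18 to 1.58). None was past it downward in either class, beside 7.04% of genes in arterial and 5.64% in venous ECs. Pkm in veins, at 122 and 120 CPM, had a ratio of −0.03 (−0.24 to 0.19). In LEC-like ECs 7 were measured and none was past it upward, beside 8.4% of 3977 genes. Aldoa and Gpi1 were past it downward, beside 8.42%. Aldoa had 130 and 60 UMIs there, 270 CPM (226 to 321) and 125 CPM (95.1 to 160), a ratio of −1.12 (−1.58 to −0.66), and the interval of Gpi1 at −0.65 included 0.

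Lactate dehydrogenase UMIs in the ECs were nearly all of Ldha, the gene of the form that favours lactate. Ldha (ENSMUSG00000063229, GRCm38 chromosome 7, 46841475 to 46855627, plus strand) had 2596 and 4703 UMIs in gCap-like ECs, 70.6 CPM (67.9 to 73.4) and 119 CPM (116 to 123). Its log2 ratio was 0.76 (0.69 to 0.83), and all 6 gCap-like clusters had an interval above 0, between 0.48 and 0.82. Without cluster 6 the ratio was 0.57 (0.50 to 0.65), just under 1.5-fold. Veins had the highest Ldha level among the vessel classes, 153 CPM (140 to 168) in control and 199 CPM (183 to 215) in B16-F10 lungs, while Pfkfb3 was lowest there among the blood vessel classes. Ldhb, the form that favours pyruvate, had 14 and 39 UMIs in gCap-like ECs, of which free RNA would supply 66.6% and 37.8%. The lactate carriers Slc16a1 (MCT1) and Slc16a3 (MCT4) had 4 and 11 and 17 and 24 UMIs and were not measured.

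Genes of pyruvate entry and oxidation moved little. In gCap-like ECs the pyruvate carrier genes Mpc1 and Mpc2 had ratios of 0.16 (0.09 to 0.23) and 0.19 (0.12 to 0.26). Pdha1, Pdhb and Dlat, which encode subunits of the pyruvate dehydrogenase complex, had ratios of 0.03 (−0.06 to 0.13), −0.01 (−0.10 to 0.09) and −0.04 (−0.15 to 0.07), all including 0. Of the inhibitory kinases, Pdk2 had 14.3 CPM (13.1 to 15.6) in control and 11.9 CPM (10.9 to 13.1) in B16-F10 lungs, a ratio of −0.26 (−0.45 to −0.08). Pdk1, Pdk3 and Pdk4 had ratios of −0.08, 0.14 and −0.35 with intervals that included 0. The kinases differed by vessel class instead. Pdk1 took 40.1% (37.4 to 42.8) of PDK UMIs in control gCap-like ECs and 4.10% (2.13 to 7.04) in control aCap-like ECs. In B16-F10 lungs the shares of Pdk1 were 41.0% and 6.19%.

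RNA of other cell types was also measured in the gCap-like cells. The 6 macrophage and monocyte markers summed to 14.6 CPM in control and 29.0 CPM in B16-F10 cells, with 6 of 6 higher, the 5 neutrophil markers to 2.77 and 7.86 CPM, with 4 of 5 higher, and the 8 mural markers to 20.6 and 36.0 CPM, with 7 of 8 higher. The 8 melanoma markers summed to 26.7 and 54.5 CPM, with Mlana, Tyrp1 and Slc45a2 at 0 in control. The 6 platelet markers were at 29.8 and 27.6 CPM. When cells with a UMI of any of these lists were removed, which was tried once the data had been seen, 2961 control and 1659 B16-F10 cells remained, with ratios of 2.03 for Pfkfb3, 0.74 for Ldha and 0.61 for Eno1. Free RNA was estimated at 2.03% and 3.13% of the gCap-like UMIs of the control and the B16-F10 library, and would supply 1.47% and 2.30% of their Pfkfb3.

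The melanoma cells had other levels of many of these genes than the ECs. In the B16-F10 library the 34 genes made up 11911 CPM of melanoma-like cells against 1816 CPM of gCap-like ECs. Of 26 measured genes 13 were at least 1.5-fold higher in melanoma-like cells, beside 16.3% of all 12198 genes, and 7 were lower, beside 66% of all genes. Of the 7, Hk1, Pfkfb2, Pfkfb3 and Pdk2 had intervals below 0. Pfkfb3 had 1 UMI in 79 melanoma-like cells, 1.20 CPM (0.0305 to 6.70), against 137 CPM in gCap-like ECs, a log2 ratio of −6.83 (−12.14 to −4.36). Pfkfb4 had 0 UMIs, which allowed up to 4.44 CPM, so a difference from the 1.32 CPM of gCap-like ECs was not detectable at this depth.

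**Figure D5:**
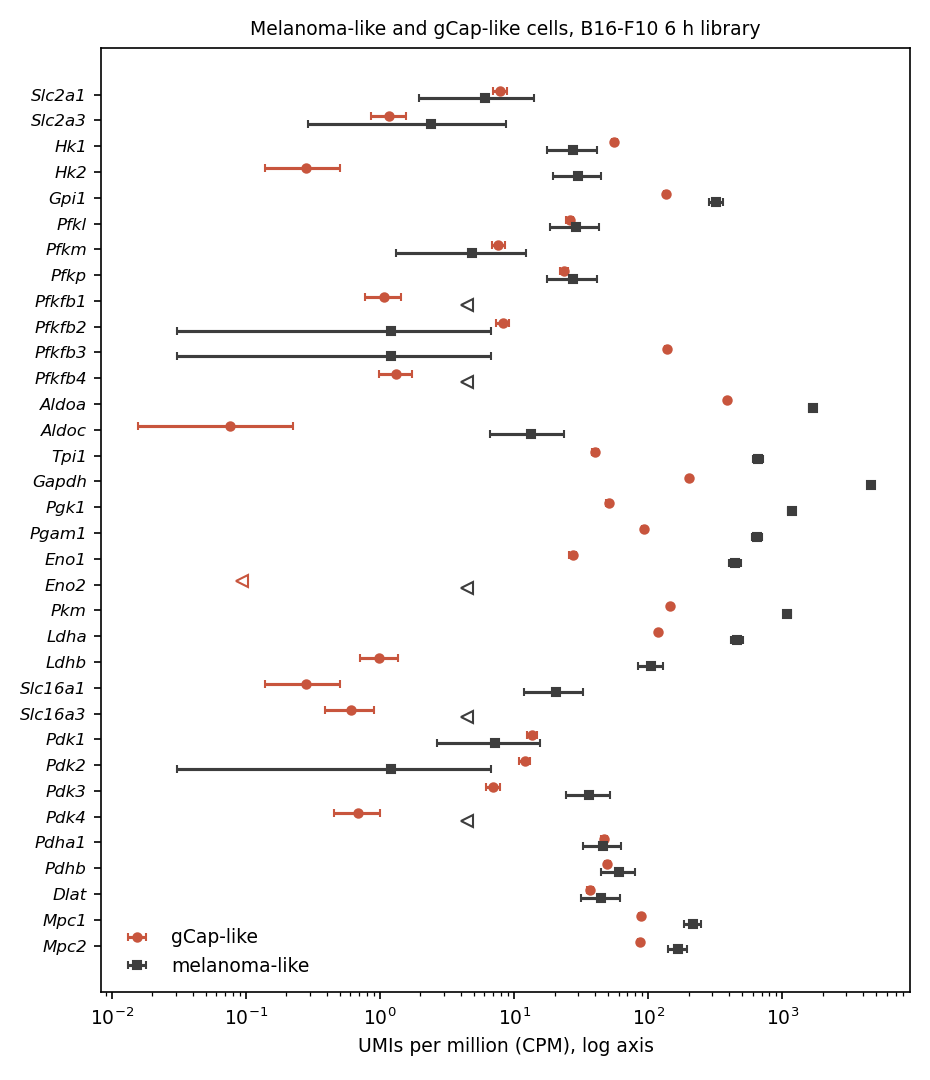
Level in CPM (log axis) of each of the 34 genes in gCap-like ECs (red circles) and melanoma-like cells (dark squares) of the B16-F10 library, with bars for the exact Poisson 95% interval and open triangles for the upper limit where no UMI was counted. Gapdh (4596 against 201 CPM), Pgk1, Tpi1, Eno1, Hk2 and Ldhb are further right in melanoma-like cells, and Pfkfb3 (1.20 against 137 CPM) is further left.

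Hk2 had 25 UMIs in the melanoma-like cells, 30.1 CPM (19.5 to 44.4), against 11 UMIs and 0.279 CPM in gCap-like ECs, and made up 52.1% (37.2 to 66.7) of their hexokinase UMIs. Hk1 was lower, at 27.7 CPM (17.5 to 41.5) against 55.6 CPM. Gapdh had 4596 against 201 CPM, a ratio of 4.51 (4.46 to 4.57). Pgk1 had 1171 against 50.8 CPM, a ratio of 4.53 (4.42 to 4.64). Eno1 had 443 against 27.4 CPM and Tpi1 656 against 40.2 CPM. Ldha had 460 against 119 CPM, a ratio of 1.95 (1.79 to 2.10), and Ldhb 105 against 0.989 CPM, so Ldhb made up 18.6% (15.1 to 22.4) of lactate dehydrogenase UMIs in these cells. The dehydrogenase subunits Pdha1, Pdhb and Dlat had ratios whose intervals included 0, while Mpc1 was at 215 against 88.8 CPM and the kinase Pdk3 at 36.1 against 7.00 CPM. Malat1, a nuclear RNA, was at 334 CPM in melanoma-like and 34911 CPM in gCap-like cells, and its part in these ratios was not tested.

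Genes around the pathway were counted in the same way from 6 lists. Of 25 further glycolysis genes 10 were measured, and 0 were past 1.5-fold upward and 1 downward in gCap-like ECs, the sugar transporter gene Slc2a12 (−0.88). Of 8 pyruvate dehydrogenase partners 7 were measured and 2 were past it downward, beside 9.47% of all genes. These were Pdp2, which encodes a catalytic subunit, and Pdpr, which encodes a regulatory subunit, of the phosphatases that switch the complex on. Pdp1, which encodes another catalytic subunit and is in the same list, was not among the genes past 1.5-fold. Pdp2 went from 11.1 CPM (10.0 to 12.2) to 6.31 CPM (5.55 to 7.15) and Pdpr from 31.9 CPM (30.1 to 33.8) to 17.5 CPM (16.3 to 18.9), with log2 ratios of −0.81 and −0.86. Of 23 genes, all measured, of the pentose phosphate, hexosamine and glycogen branches 2 were higher, Prps1 at 0.68 and the liver glycogen phosphorylase gene Pygl at 0.64, a share near the 7.53% of all genes. Of 19 tricarboxylic acid cycle genes, all measured, none was higher and Pcx, at −0.64 with an interval that included 0, was lower.

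Of 26 genes of the hypoxia (HIF) pathway outside glycolysis 23 were measured, and 4 were higher and 3 lower in gCap-like ECs, beside 7.53% and 9.47% of all genes, with a median of −0.09 against −0.04 over all genes. Hif1a, the oxygen-regulated subunit of HIF-1, went from 65.6 to 101 CPM, a ratio of 0.62 (0.55 to 0.69). Ndrg1 went from 9.24 to 32.2 CPM (1.80), Ddit4 from 7.91 to 14.8 CPM (0.90) and the repressor gene Bhlhe40 from 4.05 to 45.7 CPM (3.50). Ankrd37, Mxi1 and Plod2, known targets of the same pathway, were lower, at −0.59, −0.92 and −0.84. The list thus held genes that moved in both directions. Of 16 regulators of glucose use 13 were measured, and 3 were higher and 2 lower, beside the same 7.53% and 9.47%. Myc, which encodes a transcription factor of glycolytic genes, went from 18 to 486 UMIs in gCap-like ECs, a ratio of 4.65 (3.98 to 5.42). Stat3 and Arrdc4 had ratios of 0.61 and 0.67. Txnip, which encodes a brake on glucose uptake, went from 830 CPM (821 to 840) to 468 CPM (462 to 475), a ratio of −0.83 (−0.85 to −0.80), and Ppargc1a had a ratio of −0.70.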

How the data were processed

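Cells sorted from lungs of 1 control and 1 B16-F10 group of mice were measured by 10x single-cell RNA sequencing. The authors deposited unfiltered counts of UMIs per gene and barcode. The submitters' processing notes name Cell Ranger 7.2.0, Seurat 4.4.0 and mm10; whether intron reads were counted is not given in the sources used here. Barcodes outside 1000 to 5000 genes, or with 20% or more mitochondrial UMIs, were dropped as in the study, and doublets scored with Scrublet (scanpy 1.11.5) were removed at 0.8% per 1000 cells (564 and 554 cells). UMIs were scaled to 10000 per cell and clustered on 2953 variable genes, 30 components and 20 neighbours with leidenalg 0.10.2 at resolution 0.8, into 22 clusters. Named classes needed at least 3 listed markers, and more for the longest lists. EC classes also needed most endothelial markers and no passing list of another cell type. These thresholds were settled only once a first clustering was known. Cluster 10, with endothelial and platelet markers (232 and 246 cells), and low-UMI cluster 5 (295 and 759 cells) were kept out of the ECs. The 34 genes and all lists were chosen with earlier results of these data known. Named genes are those past 1.5-fold in gCap-like ECs, the PFKFB family and at least 1 gene of each step, and listed neighbours past 1.5-fold. UMIs were summed per class and library, with exact Poisson intervals for CPM, exact conditional binomial intervals for log2 ratios without a pseudocount, and Clopper-Pearson intervals for shares (scipy 1.17.1). The intervals were checked on counts simulated with Poisson error only, so that check does not cover variation between cells, mice or libraries. With 1 library per group no test was run. Of the 32285 gene IDs, 32158 matched GENCODE M21 on GRCm38 (mm10), which gave the coordinates. Promoter windows are from RefSeq on GRCm38.p6. The other tools were Python 3.11.15, numpy 2.4.6, pandas 2.3.3 and matplotlib 3.10.9. Results were recomputed under other cell filters, clusterings, scalings, depths and class definitions.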

Additional observations from a re-analysis of the deposited data

Results flagged for a closer look

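Aldoa had a log2 ratio above 0 in 4 vessel classes and below 0 in the other, and this difference was not tested. It was 0.29 in gCap-like and 0.55 in aCap-like ECs, 0.41 in arteries, 0.33 in veins and −1.12 in LEC-like ECs, which had 58 control and 51 B16-F10 cells.

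Barcodes outside the limits on cells, which entered no main class sum, held more Pfkfb3, Eno1 and Ldha RNA in the B16-F10 than in the control library. Those with 1 to 100 UMIs gave the profile behind the estimates of free RNA. Some of the others entered the settings with wider limits on genes. In B16-F10 barcodes with 1 to 100 UMIs, with over 100 UMIs and under 300 genes, with 300 or more but under 1000 genes and with over 5000 genes, Pfkfb3 was at 101, 95.5, 67.6 and 98.5 CPM. The control library had 28.2, 24.6, 31.5 and 31.9 CPM. Eno1 was at 38.5, 30.3, 31.3 and 34.03 CPM in the same order, against 16.8, 12.6, 16.01 and 19.4 CPM in control. Ldha was at 165, 124, 120 and 140 CPM, against 85.5, 62.4, 92.2 and 104 CPM in control. Pfkfb4 and Ldhb, also past 1.5-fold in gCap-like ECs, had overlapping intervals in each kind of barcode. The pattern was not particular to Pfkfb3, Eno1 and Ldha, since Gapdh was at 448 against 216 CPM in barcodes with 1 to 100 UMIs. Whether the barcodes with 1 to 100 UMIs hold only free RNA was not tested. Whether the others hold free RNA, damaged cells or several cells was not tested either.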

How the results depend on the processing

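No paired analysis was possible because a group holds 1 library, and for the same reason no library could be left out in turn. Of 78 alternative values for the 5 results that answer a comparison, 61 kept within the spread of counting error or within 1.5 times the count, 16 moved and 1 changed sign. The log2 ratio of Pfkfb3 in aCap-like ECs kept between 1.32 and 1.57 throughout. In gCap-like ECs the ratio of Pfkfb3 stayed above 0. It moved to 1.95 with cells of at least 500 genes and to 1.97 with all ECs summed. Without cells with a UMI of platelet, mural, macrophage, neutrophil, melanoma or red cell markers it was 2.04. That value rests on 19 control and 4 B16-F10 cells, where Pfkfb3 was under the minimum of UMIs. The ratio was 2.03 when red cell markers were spared in that rule and 1.00 without cluster 6, both chosen after seeing the data. The median of the 34 genes changed sign, to −2.10, only under the rule that used red cell markers, which left 19 control and 4 B16-F10 cells. The number of genes past 1.5-fold upward fell from 5 to 3 with cells of at least 500 genes, with under 10% mitochondrial UMIs, at resolution 1.6, after thinning, without low-UMI clusters, without cluster 6 and with red cell markers spared, to 2 at 2-fold and to 0 with the 19 and 4 cells. The number past it downward went from 0 to 1 with at least 500 genes and with the 19 and 4 cells. The rule with red cell markers left 1 of the 34 genes measured. For the others the cause was not tested. Of 155 values for single genes, 139 kept within counting error and 16 moved. The ratio of Pfkfb3 in LEC-like ECs, whose interval included 0, changed sign, to −0.23 after thinning and to −0.13 with red cell markers spared. In artery-like ECs the ratio of Pfkfb3 lay between 0.96 and 1.88. Scaling by the median gene shifted gCap-like ratios by 0.04. Depth limits Hk2, Aldoc, Eno2, Slc16a1 and Slc16a3 in every vessel class and most genes in LEC-like ECs.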

Other observations

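In aCap-like ECs the genes around the pathway were counted as in general capillaries, and the genes named here were chosen after their values were seen. The genes of the pentose phosphate, hexosamine and glycogen branches had a median log2 ratio of 0.17 there and 0.24 in gCap-like ECs. Of 6 measured further glycolysis genes 1 was past 1.5-fold upward, Bpgm, which makes 2,3-bisphosphoglycerate, with 63.4 CPM (59.1 to 67.8) in control and 141 CPM (134 to 148) in B16-F10 cells, or 1.15 (1.03 to 1.27) as a log2 ratio. Of 21 measured genes of the pentose phosphate, hexosamine and glycogen branches 4 were past it upward and 0 downward, beside 6.43% and 8.06% of all measured genes. Among them were 3 enzymes of the pentose phosphate pathway, G6pdx at 0.63 (0.34 to 0.92), Pgd at 0.81 (0.69 to 0.92) and Taldo1 at 0.69 (0.60 to 0.78). These sums include the low-UMI cluster 9, with 480 control and 64 B16-F10 cells. The ratios of these genes were not recomputed without it. Red cell markers moved the other way in these cells, from 1992 CPM in control to 1092 CPM in B16-F10 lungs. Whether aCap-like and gCap-like ECs differ in these genes was not tested.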
